A study of Mus musculus with 2 samples.

Results

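Interferon-stimulated genes (ISGs) were compared between follicular (FO) and marginal zone (MZ) B cells of the mouse spleen. FO cells are the recirculating majority of splenic B cells, and MZ cells border the marginal sinus and meet blood-borne antigens early. The set was a list of 39 gene symbols, and a gene entered through probe sets that the platform's annotation assigns to 1 gene, out of 12393 genes with such a probe set. Of the 39, 26 had a signal above the floor defined below on at least 1 array, 6 lay below it on both arrays, and 7 had no probe set annotated to them alone. The list held 23 antiviral effectors, 6 nucleic acid sensors, 6 guanylate-binding proteins (GBPs) and immunity-related GTPases (IRGs), and 4 antigen-processing genes. Effectors and sensors together are called the type I members.

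Each population was measured on 1 Affymetrix array. Per the labels' protocols, B cells were bead-enriched with an antibody to B220 from the spleens of 3 wild-type female C57BL/6 mice of unstated age, and no treatment is named for either population. FO cells were sorted as CD23 high and CD21 intermediate, and MZ cells as CD23 intermediate and CD21 high. Sorted cells were pooled before lysis, and whether the same mice gave both populations is not stated. With 1 array per population no replicate error or p-value can be given, so differences are sizes, with 2-fold as the threshold, and their precision is limited by this number of arrays.

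Type I interferons bind the receptor chains encoded by Ifnar1 and Ifnar2 and activate the kinases Jak1 and Tyk2. These kinases activate a transcription factor complex that holds Irf9 and binds the interferon-stimulated response element (ISRE) of ISG promoters. Interferon gamma acts through Ifngr1 and Ifngr2 on gamma-activated sites (GAS) in promoters, and it is the classical inducer of GBPs and IRGs. ISG products degrade viral RNA, block viral entry and replication, sense foreign nucleic acids, disrupt pathogen vacuoles and load peptides on class I molecules.

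Promoter sequences are given first, since the ISRE and the GAS are the letters through which interferons reach these genes. RefSeq windows of GRCm38.p6, from 250 bases before to 50 bases after each start, were found for 29 of the 39 members. They were searched on both strands for an ISRE core, which is TTTC, then any 2 bases, then a second TTTC, and for a GAS, TTCNNNGAA, which is its own reverse complement in the fixed letters. An ISRE core lay in at least 1 window of 15 of the 29 genes (51.7%), against 3.99% of all 27025 genes and 3.44% of all 32851 windows in the table. By role it lay in 7 of 18 effectors, 3 of 3 sensors, 5 of 5 GTPases and 0 of 3 antigen-processing genes. In Ifih1, Ddx58 and Ifitm3 the ISRE cores lay after the start, so of the sensors Ifi203 alone had one before it. Of the sensors with a core, Ifih1 alone was also measured. A GAS lay in 10 of the 29 (34.5%), against 9.55% of all genes and 8.30% of all windows, and lay after the start in Adar, Ifi35 and Ifitm3. Members were listed as targets of interferon, so these shares describe the list, and differences between roles were not tested. A match is a description of the letters and not a shown binding site.

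The stretches below are shown for the members past 2-fold that had a match and for the measured GTPases with a window; the GTPases were added after their values were seen. Capitals mark the matches, and each stretch runs 5′ to 3′ on the strand of the gene and ends before its start. The window of Oas1a held a GAS farther upstream, which is not shown. Adjacent cores overlap in Oas1a, Gbp3 and Irgm1. In Igtp a GAS stands before the ISRE core, and in Samhd1 the window held a GAS and no ISRE core.

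Oas1a, chr5:120907526-120907565, minus strand: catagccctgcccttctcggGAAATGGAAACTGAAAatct

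Rsad2, chr12:26456543-26456592, minus strand: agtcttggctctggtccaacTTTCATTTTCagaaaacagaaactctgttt

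Samhd1, chr2:157135303-157135346, minus strand: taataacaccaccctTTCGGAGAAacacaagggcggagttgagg

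Gbp2, chr3:142620584-142620633, plus strand: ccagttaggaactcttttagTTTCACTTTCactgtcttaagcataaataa

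Gbp3, chr3:142559979-142560034, plus strand: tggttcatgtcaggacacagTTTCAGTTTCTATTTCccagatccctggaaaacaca

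Igtp, chr11:58199491-58199550, plus strand: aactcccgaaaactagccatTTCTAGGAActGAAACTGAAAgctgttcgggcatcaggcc

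Irgm1, chr11:48871421-48871470, minus strand: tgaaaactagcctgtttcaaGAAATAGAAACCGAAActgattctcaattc

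Signals are MAS5 intensities scaled to the same trimmed mean on each array, and they are given with follicular first. The floor is the median of all scaled signals, 12.7, and lower values were raised to it before a ratio was taken. Where 1 array was below it, the fold is written "at least". Each gene is represented by its brightest probe set, and signals of different genes are not compared with each other, since probes differ in brightness. Of all 7695 measured genes, 4.39% were at least 2-fold higher in MZ and 4.86% at least 2-fold higher in FO cells, and their median log2 ratio of MZ over FO signal was -0.03. All 9 measured B cell markers were above the floor on both arrays, 4 of them higher in MZ and 5 in FO cells. Ms4a1, which encodes CD20, was at 1754 and 1878, while Cd79b (1040 and 546) and Cd79a (197 and 116), which encode the signalling chains of the B cell receptor, were 1.90-fold and 1.70-fold higher in FO cells. The sort marker genes Fcer2a (727 and 89.6) and Cr2 (278 and 890) followed the gates. A bulk array cannot separate a smaller share of expressing cells from less RNA per cell.

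The ISGs did not move as 1 block. Of the 26 measured members, 13 had the higher signal in MZ and 13 in FO cells, and their median log2 ratio was -0.00058. At 2-fold, 5 members (19.2%, against the 4.39% of all genes) were higher in MZ cells: Oas1a, Rsad2, Oasl1, Oas2 and Mx1. In the other direction 2 members (7.69%, against 4.86%) were higher in FO cells, Samhd1 and Rtp4. All 7 were antiviral effectors. Of the 14 measured members whose higher signal was under 45.7, the 75th percentile, 2 were past 2-fold in MZ and 1 in FO cells, against 3.45% and 3.82% of all such genes. Of the 12 brighter members it was 3 and 1, against 5.31% and 5.87%. Of the 26, 4 passed the floor on the MZ array alone and 3 on the FO array alone, which fixed their side; of the 19 above it on both, 9 were higher in MZ and 10 in FO cells. For this reason these counts describe the members and support no statement about the list.

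**Figure D1:**
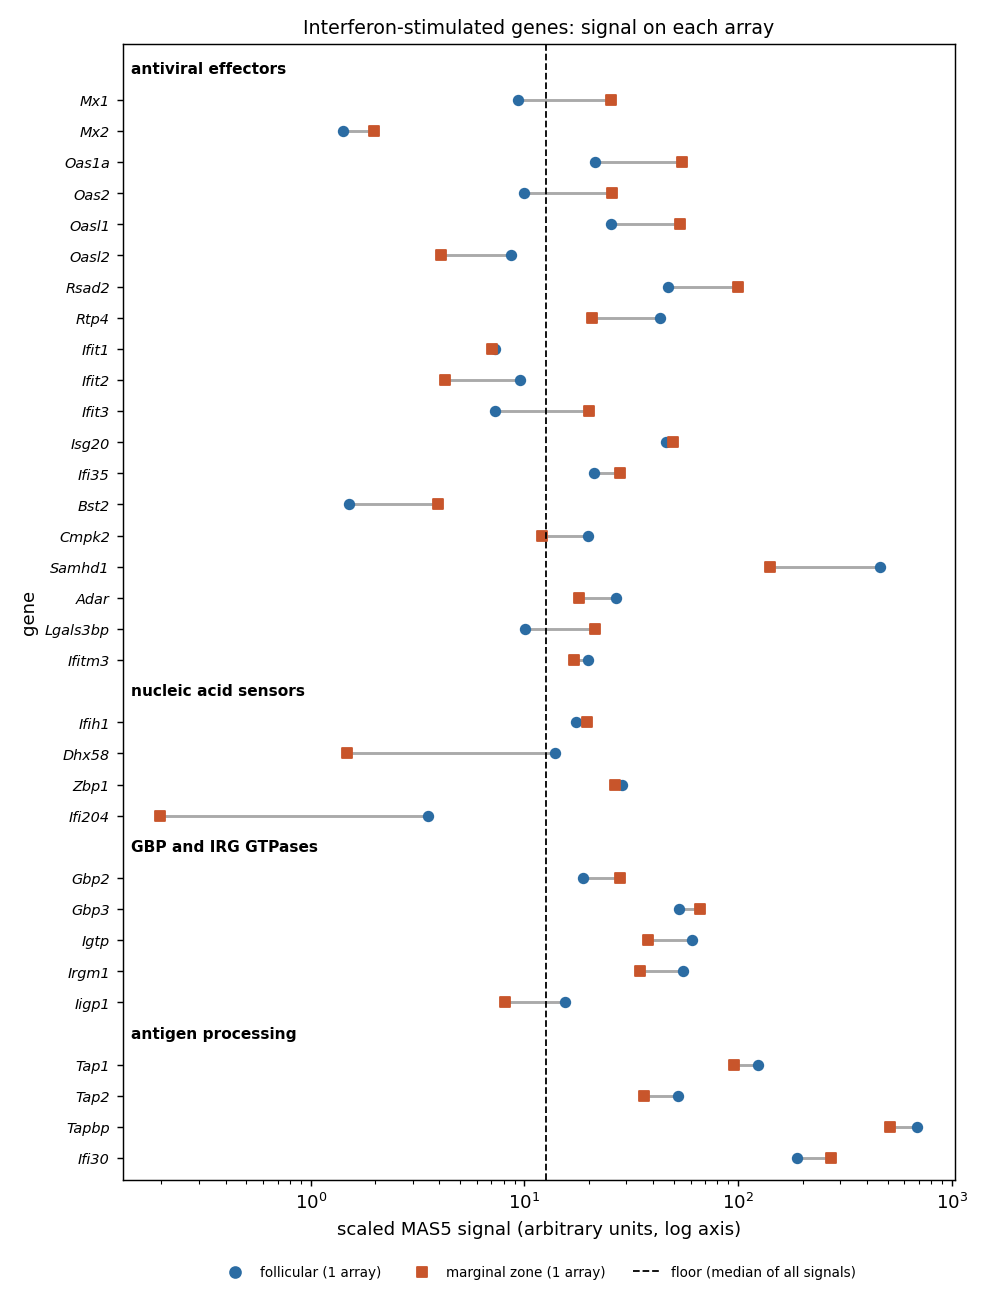
Scaled MAS5 signal (log axis) of the 32 members with a probe set of their own, 1 row a gene, grouped by role. Blue circles are the follicular array, orange squares the marginal zone array and the dashed line the floor of 12.7; Samhd1 runs from 463 in FO to 141 in MZ cells, while most other effectors lie close to the floor.

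At the floor used, Samhd1 had the largest log2 ratio in size among the measured members; with the floor at the 25th percentile Dhx58, whose MZ signal is a bound, was at -1.85 against -1.72 for Samhd1. It encodes a deoxynucleotide triphosphohydrolase that lowers the nucleotide pool and restricts retroviruses, and it is expressed in resting lymphocytes as well as being interferon-inducible. Its brightest probe set was at 463 in FO and 141 in MZ cells, 3.29-fold higher in FO cells. Only 0.637% of all measured genes had a lower log2 ratio. The second probe set was at 159 and 70.8 (2.25-fold), the third at 138 and 45.4 (3.03-fold), and the fourth at 92.9 and 57.3 (1.62-fold). All 4 were thus higher in FO cells, with log2 ratios from -1.72 to -0.70. Probe sets share the same RNA, so this repeats the probes and not the sort.

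The measured genes of the oligoadenylate synthetase family lay on the other side. Oas1a and Oas2 encode enzymes that make oligoadenylates, which activate the ribonuclease RNase L, Oasl1 encodes a relative without that activity, and Oasl2 a further relative. Oas1a was at 21.4 in FO and 54.4 in MZ cells, 2.54-fold higher in MZ cells, and 1.55% of all measured genes had a higher log2 ratio. Oasl1 was at 25.4 and 53.3, 2.10-fold higher in MZ cells. Oas2 was at 10.0 and 25.6, at least 2.02-fold higher there. Oasl2, at 8.69 and 4.06, was below the floor on both arrays. Each of the 4 rests on 1 probe set, and 3 of them had the higher signal in MZ cells. Of these 3, Oas2 passed the floor on the MZ array alone, so its side was fixed by that filter. Outside the members, Oas3 (3.64 and 4.55) and Oas1b (9.19 and 12.5) were below the floor on both arrays.

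Rsad2, which encodes viperin, an enzyme that makes a chain-terminating nucleotide, was at 46.8 and 99.4, 2.12-fold higher in MZ cells. Its second probe set was at 11.5 and 16.5, at least 1.305-fold higher there, and the third at 1.01 and 10.7, below the floor. The neighbouring gene Cmpk2, which encodes a mitochondrial nucleotide kinase that supplies the substrate, was at 19.8 and 12.1, or at least 1.56-fold higher in FO cells. Rsad2 and Cmpk2 were therefore on opposite sides on this pair of arrays, although Cmpk2 was near the floor on both. Cmpk2 passed the floor on the FO array alone, so its side was fixed by that filter.

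Mx1, a dynamin-like GTPase of which C57BL/6 mice carry a defective allele, was at 9.30 and 25.5, or at least 2.02-fold higher in MZ cells. Mx2 was at 1.41 and 1.98, below the floor. Rtp4, a receptor-transporting protein induced by interferon, was at 43.1 and 20.7, 2.09-fold higher in FO cells. A second probe set, at 10.0 and 4.45, was below the floor on both arrays.

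The remaining effectors differed by less than 2-fold. The Ifit genes encode proteins that bind viral RNA ends; Ifit3 was at 7.28 and 19.99, or at least 1.58-fold higher in MZ cells, whereas Ifit1 (7.28 and 7.03) and Ifit2 (9.50 and 4.26) were below the floor. Isg20, an exonuclease, was at 46.2 and 49.4, and Ifi35 was at 21.1 and 28.01. Lgals3bp, a secreted glycoprotein, was at 10.1 and 21.4, or at least 1.69-fold higher in MZ cells. Adar, which edits double-stranded RNA, was at 26.7 and 18.01 and 1.48-fold higher in FO cells. Ifitm3, which blocks viral fusion, was at 19.9 and 17.0. Bst2, which encodes tetherin, was at 1.52 and 3.96, below the floor. Over the effectors, 9 of 14 measured genes were higher in MZ cells, with a median log2 ratio of 0.53 and a range from -1.72 to 1.35. Of the 14, 4 passed the floor on the MZ array alone and 1 on the FO array alone, which fixed their side. Of the 9 above it on both arrays, 5 were higher in MZ and 4 in FO cells. With the floor at the 25th percentile the effector median was 0.07.

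The 5 differences past 2-fold in MZ cells were modest and depended on the processing, and Oas2 and Mx1 were below the floor on the FO array. With the floor value added to both signals as a pseudocount, none of the 5 stayed past 2-fold (log2 ratios from 0.76 for Oas2 to 0.98 for Oas1a), and Rtp4 was at -0.74, while Samhd1 stayed past it. With the floor at the 75th percentile Oas1a was at 0.25 and Oasl1 at 0.22, while Rsad2 stayed at 1.09. The mean over the measured probe sets of Rsad2 was 0.74.

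**Figure D2:**
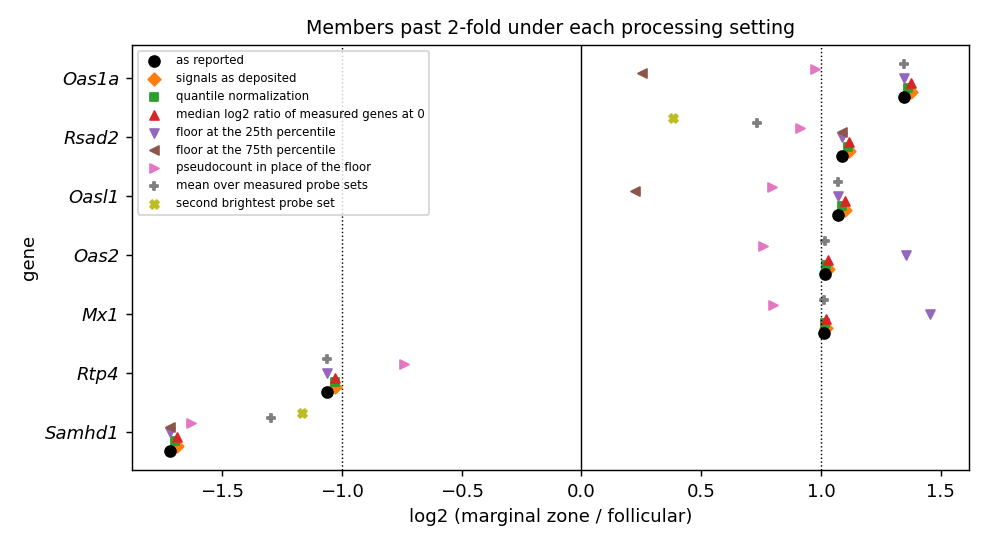
Log2 ratio of MZ over FO signal for the 7 members past 2-fold, recomputed under each processing setting (symbols). Dotted lines mark 2-fold; Samhd1 stays beyond the line under every setting shown, from -1.72 to -1.17, while a pseudocount brings the other 6 inside.

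The nucleic acid sensors were near the floor or at similar signals on both arrays. Ifih1, which encodes the double-stranded RNA sensor MDA5, was at 17.5 and 19.6. Zbp1, a sensor of Z-form nucleic acids that triggers necroptosis, was at 28.5 and 26.6. Dhx58, which encodes the regulator LGP2, was at 13.8 and 1.48, or at least 1.09-fold higher in FO cells, and its other probe sets were below the floor. Ifi204, a DNA sensor of the p200 family, was at 3.54 and 0.198, below the floor on both arrays. The 3 measured sensors had log2 ratios from -0.13 to 0.16. Together with the effectors, the 17 measured type I members had a median of 0.16, with 10 higher in MZ and 7 in FO cells. These counts include Dhx58 and the effectors that passed the floor on 1 array alone, which fixed their side.

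The GTPases divided by family. GBPs attack the membranes of vacuoles and of cytosolic bacteria, and IRGs bind pathogen vacuoles, Igtp and Irgm1 being regulatory members and Iigp1 an effector. Gbp2 was at 18.7 and 28.01, 1.498-fold higher in MZ cells, and its second probe set was at 6.37 and 28.9, at least 2.28-fold higher there. Gbp3 was at 53.0 and 66.4, 1.25-fold higher in MZ cells. Among the IRGs, Igtp was at 61.1 and 37.8, 1.62-fold higher in FO cells. Irgm1 was at 55.0 and 34.5, 1.59-fold higher in FO cells, and Iigp1 was at 15.6 and 8.12, at least 1.23-fold higher there. Both measured GBPs were thus higher in MZ and all 3 measured IRGs in FO cells, and 0 of the 5 reached 2-fold. Iigp1 passed the floor on the FO array alone, so its side was fixed by that filter.

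Of other genes of these families, from a list that is not part of the members, 4 were measured. Gbp7 was at 33.7 and 61.3, 1.82-fold higher in MZ cells. Gbp8, at 1.21 and 34.9, was at least 2.76-fold and Gbp6, at 11.4 and 25.4, at least 2.01-fold higher there, but both passed the floor on the MZ array alone and could only count as higher in MZ cells. Ifi47, an IRG, was at 127 and 64.4, 1.98-fold higher in FO cells, and Irgm2 was below the floor. GBP genes are near copies of each other, so their probe sets may share signal, and the division by family was noticed after the values were seen.

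Set beside the type I members, the 5 measured GTPases had a median log2 ratio of -0.30 (range -0.69 to 0.58), with 2 higher in MZ and 3 in FO cells. The type I median was 0.16 and that of all measured genes -0.03. At 2-fold, 5 of 17 type I members were higher in MZ and 2 in FO cells, against 4.39% and 4.86% of all measured genes. Of these, Oas2 and Mx1 passed the floor on the MZ array alone. Of the GTPases 0 of 5 reached 2-fold, too few genes to set against those shares. The ranges overlap and 1 array per population allows no test, so no difference between the groups is claimed. With the floor at the 25th percentile the type I median was 0.04 and the GTPase median -0.67.

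**Figure D3:**
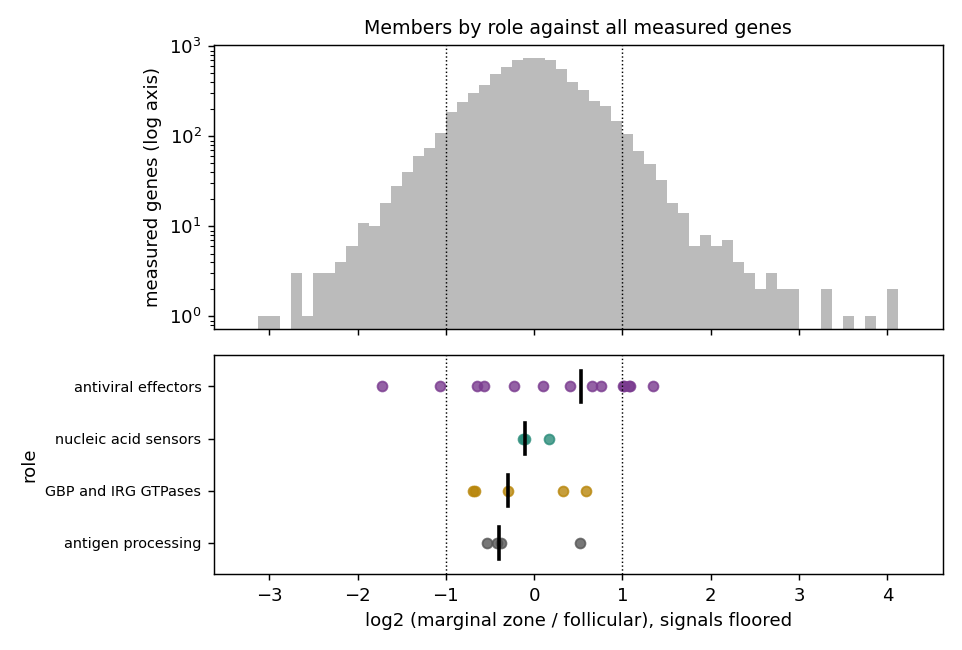
Upper panel, number of measured genes (log axis) by log2 ratio of MZ over FO signal; lower panel, each measured member by role on the same axis, with a bar at the median of the role. Dotted lines mark 2-fold; only antiviral effectors lie beyond them, and the bars stand at 0.53, -0.10, -0.30 and -0.40 from top to bottom.

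Antigen-processing members were mostly higher in FO cells by small amounts. Tap1 and Tap2 form the peptide transporter of the class I pathway; Tap1 was at 124 and 95.4 and Tap2 at 52.4 and 36.3, 1.297-fold and 1.44-fold higher in FO cells. Tapbp, which encodes tapasin, was at 687 and 514, 1.34-fold higher in FO cells, but its second probe set was at 27.0 and 26.8. Ifi30, a lysosomal thiol reductase of class II processing, went the other way, at 189 and 271, 1.44-fold higher in MZ cells. Their median was -0.40. At 2-fold it was 0 of 4, too few genes to set against the 4.39% and 4.86% of all measured genes.

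**Figure D4:**
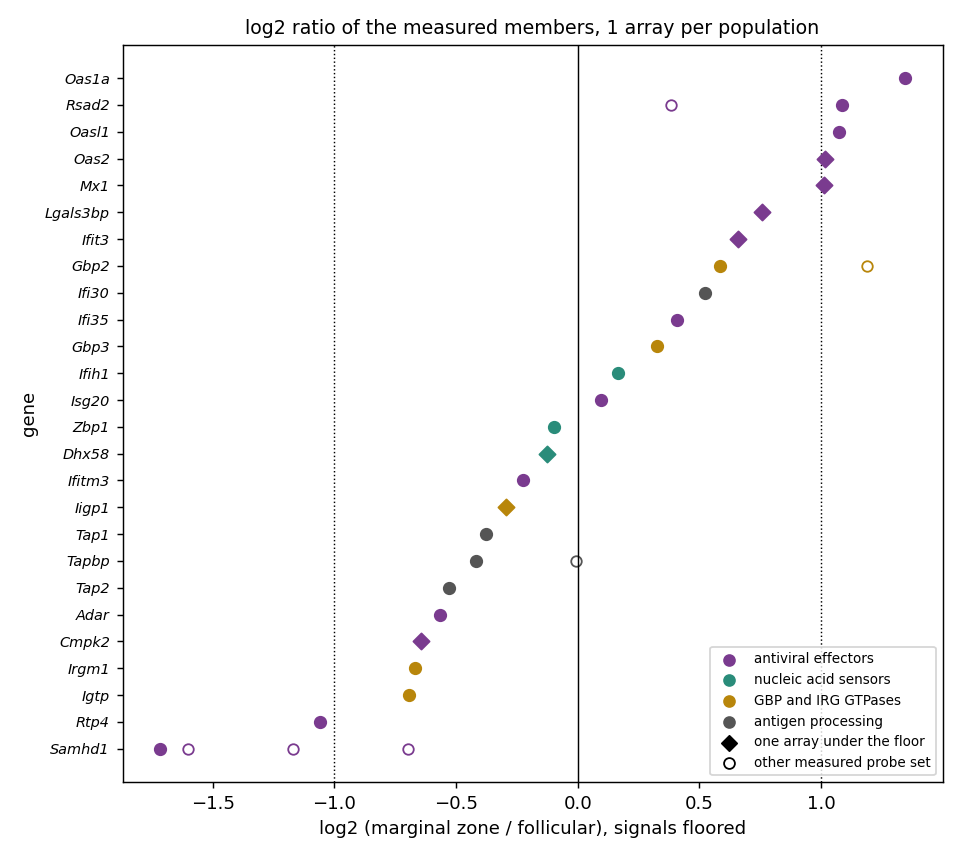
Log2 ratio of MZ over FO signal for each of the 26 measured members, ordered by value and coloured by role. Filled symbols are the brightest probe set, diamonds mark genes with 1 array under the floor, and open circles are other measured probe sets; the 4 probe sets of Samhd1 all lie left of 0, and Gbp2 and Gbp3 lie right of it while Igtp, Irgm1 and Iigp1 lie left.

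Of the signalling genes that control ISGs, 3 lists joined here were mostly lower in MZ cells. These 3 lists held 20 measured receptors, JAK kinases, transcription factors and negative regulators. A further list, sensing adaptors and kinases, is given separately below, and 5 of its 6 measured genes went the other way. By the brightest probe set, 19 of the 20 had the lower signal in MZ cells, and 5 were at least 2-fold lower. Irf2 and Socs1 passed the floor on the FO array alone; of the 18 above it on both arrays, 17 were lower in MZ cells. Of all measured genes, 52.2% were lower in MZ cells and 4.86% at least 2-fold lower. No test was possible. Among receptors, Ifnar1 was at 132 and 55.2, 2.40-fold higher in FO cells. Ifnar2, its partner chain, was the exception, at 55.4 and 98.3 and 1.77-fold higher in MZ cells, with its second probe set at 12.8 and 28.4. The interferon gamma receptor chain Ifngr2 was at 177 and 58.1, 3.05-fold higher in FO cells, but its second probe set was at 42.2 and 35.3; Ifngr1 was at 99.3 and 64.7. The 2 chains of the type I receptor were thus on opposite sides, and both chains of the interferon gamma receptor were higher in FO cells.

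Downstream of the receptors, Jak1 was at 341 and 219, with 3 probe sets from -0.82 to -0.64 on the log2 scale. Irf9, a DNA-binding part of the complex that binds the ISRE, was at 77.5 and 45.0, 1.72-fold higher in FO cells, and Stat2 at 21.4 and 14.4. Of the interferon regulatory factors, all 6 measured were lower in MZ cells. Irf1, an activator of GTPase and antigen-processing genes, was at 288 and 98.2, 2.93-fold higher in FO cells. Irf8, a factor of B cell and myeloid development, was at 712 and 295, 2.41-fold higher there. Irf7, the amplifier of type I interferon production, differed little, at 49.6 and 46.3.

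All 5 measured negative regulators were lower in MZ cells. Socs3, which inhibits cytokine receptor kinases, was at 290 and 101 and 2.86-fold higher in FO cells, with 3 probe sets from -2.23 to -1.51 on the log2 scale. Ptpn6, which encodes the phosphatase SHP-1, was 1.61-fold higher there by its brightest probe set and 2.68-fold by the second (196 and 72.9). Pias1, an inhibitor of STAT factors, had 3 probe sets, which were 1.56-fold, 2.02-fold and 1.57-fold higher in FO cells. Socs1, at 18.4 and 2.97, was at least 1.45-fold higher there. Usp18, which encodes the ISG15 protease that blunts type I receptor signalling, was below the floor.

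Of 6 measured sensing adaptors and kinases, 5 were higher in MZ cells, against 47.8% of all measured genes. None of the 5 reached 2-fold in its brightest probe set. Tlr3 passed the floor on the MZ array alone, and of the 5 genes above it on both arrays, 4 were higher in MZ cells. These are too few genes to set against that share. Tbk1, the kinase that activates Irf3, was at 465 and 769, 1.65-fold higher in MZ cells, and its second probe set was at 112 and 189. The probe sets of Tlr7, a receptor for single-stranded RNA, differed: the brightest was at 51.5 and 69.2, the second at 33.1 and 78.6, 2.37-fold higher in MZ cells, and the third at 32.3 and 32.0. Trim25, the ubiquitin ligase of the RIG-I pathway, went the other way, at 1330.4 and 406, 3.28-fold higher in FO cells. Its second probe set was at 548 and 174, and the third at 24.96 and 12.2.

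**Figure D5:**
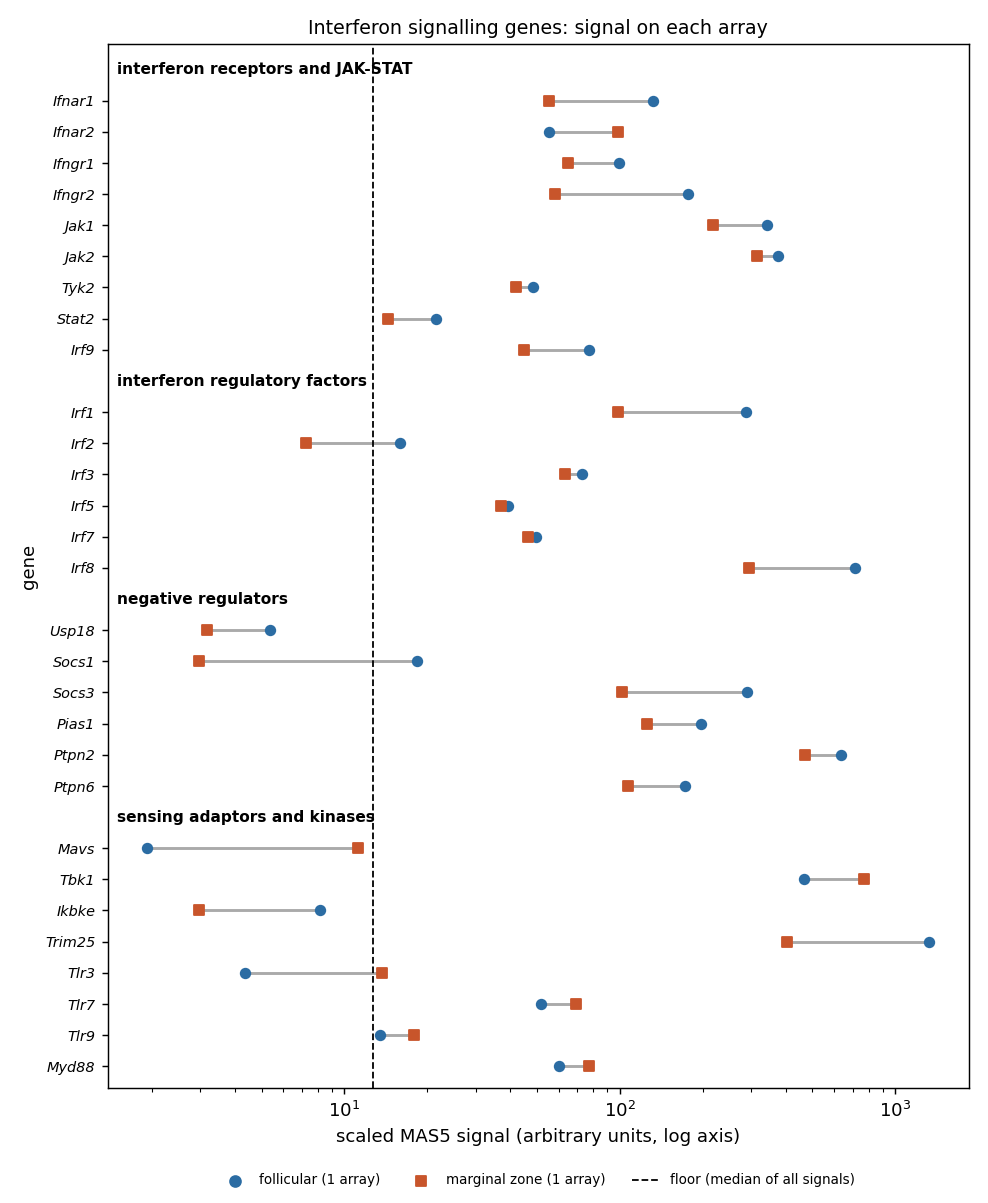
Scaled MAS5 signal (log axis) of interferon signalling genes with a probe set of their own, grouped by list. Blue circles are follicular, orange squares marginal zone and the dashed line the floor; in the upper 3 lists every measured gene except Ifnar2 has its square to the left of its circle.

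ISGs outside the 39 went both ways. Of 17 measured, 6 were higher in MZ and 11 in FO cells, with a median log2 ratio of -0.19. Of all measured genes, 47.8% were higher in MZ and 52.2% in FO cells. Ifitm1 and Ifitm2 passed the floor on the FO array alone, which fixed their side. Of the 15 above it on both arrays, 6 were higher in MZ and 9 in FO cells. The 17 include Ifi47, which is also given with the GTPases above. Plscr1, a phospholipid scramblase, was at 17.1 and 120 and 7.04-fold higher in MZ cells, and its second probe set was at 11.3 and 84.2. Nmi, a partner of Ifi35, was at 44.0 and 21.9, 2.01-fold higher in FO cells. Uba7, the activating enzyme of ISG15, was 1.71-fold higher in MZ cells, with its other probe sets at 43.8 and 96.1 and at 24.45 and 24.05. Of 10 measured genes of class I presentation, 6 were higher in MZ and 4 in FO cells, with log2 ratios from -0.33 to 0.53. At 2-fold it was 0 of 10, too few genes to set against the 4.39% and 4.86% of all measured genes. H2-K1, the highest of these ratios, was at 1469 and 2125, 1.45-fold higher in MZ cells.

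Macrophages express many ISGs, and their markers were low on both arrays. Of 18 markers, 9 were measured and 8 of these were higher in the MZ sample, against 47.8% of all measured genes. Of the 8, 5 passed the floor on the MZ array alone and could only count as higher there; the 3 above the floor on both arrays, Csf1r, Lyz2 and Adgre1, were all higher in MZ cells. The signals of the 17 markers with a probe set summed to 129 in FO and 232 in MZ cells. This sum includes 8 markers below the floor on both arrays, and brighter probes weigh more in it. It is therefore no measure of the share of macrophages. Csf1r was at 17.3 and 42.5, Lyz2 at 12.9 and 25.2, and Adgre1, which encodes F4/80, differed little at 23.7 and 24.9. On the MZ array alone were Cd5l at 11.1 and 26.7, C1qb at 2.93 and 24.5, Cd68 at 1.21 and 19.8, Vcam1 at 3.74 and 17.4 and Slc40a1 at 8.39 and 13.7. Spic, at 13.3 and 9.20, passed the floor in FO cells alone. Marco, Cd163, Fcgr1, Itgam, Mertk, C1qa, C1qc and Hmox1 were below the floor on both arrays. The part of these cells in the values of Oas1a, Oasl1, Oas2, Mx1, Rsad2, Lgals3bp, Ifit3 and Ifi30 was not tested.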

How the data were processed

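Gene expression was measured on 2 single-channel arrays, 1 per population, from about 100 ng of total RNA labelled by the 2-cycle protocol, per the labels' protocols. The deposited values are linear intensities, MAS5 signals per the submitters' processing notes; no source used here gives its version, scaling target or detection calls. Of 22626 probe sets, 20380 had 1 gene in the platform's annotation, 691 several and 1555 were not listed; 20351 identifiers were found in RefSeq (GRCm38.p6). Python 3.11.15 was used. Each array was scaled to a common 2% trimmed mean (factors 1.01 and 0.990), and a floor was set at the median, 12.7. The probe set above the floor with the highest mean log2 value stood for its gene. Probe sets of the same gene varied with a pooled SD of 0.43 (log2). All members are named, and of the other lists those with the largest differences or a role in the pathway. The members and lists were chosen with earlier results of these data known. The alternatives were 3 scalings, 2 floors, a pseudocount, 2 probe set rules and 2 thresholds. The procedure was tested on simulated data.

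Isg15, Ifi203 and Tgtp1 had only probe sets annotated to several genes, and Ifi44, Ifi27, Xaf1 and Ddx58 had none listed; these 7 are not analysed here. Mx1, Mx2, Oas2, Rtp4, Ifi27, Dhx58, Zbp1, Ifi204, Iigp1 and Tap2 were not matched in the promoter table.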

Additional observations from a re-analysis of the deposited data

How the results depend on the processing

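No paired analysis was possible because each population has 1 array. At least 2-fold higher in MZ cells were 5 of 26 members, against 4.39% of all measured genes. With the floor at the 75th percentile the count was 1 of 12 (all genes 3.20%), and with a pseudocount 0 of 26 (3.53%). With the second brightest probe set it was 1 of 4 (4.54%), and at 3-fold 0 of 26 (0.858%). Under the other alternatives the count lay between 4 and 7, and the share of all genes between 3.85% and 13.6%. At least 2-fold higher in FO cells were 2 of 26 members, against 4.86% of all measured genes. With the floor at the 25th percentile the count was 5 of 30 (all genes 12.6%), and at 1.5-fold 5 of 26 (15.8%). It was 1 of 12 with the floor at the 75th percentile (3.66%) and 1 of 26 with a pseudocount (4.16%). With the second brightest probe set it was 1 of 4 (5.80%), and at 3-fold 1 of 26 (0.871%). The type I median (0.16) was 0.044 with the floor at the 25th percentile and -0.39 over the 2 genes with a second probe set; the GTPase median (-0.30) was -0.67 with the floor at the 25th percentile and 1.19 for the second probe set of Gbp2 alone. Other scalings changed none of these counts. Of the 7 members past 2-fold, Samhd1 stayed past it under all 8 alternatives to scaling, floor and probe set. The floor and the number of genes differ by construction between these settings. Signals near the floor limit most members, and no replicate shows how far they vary.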

Other observations

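Of 6 measured plasma cell genes, 4 were higher in MZ and 2 in FO cells, against 47.8% and 52.2% of all measured genes. Prdm1, the regulator of plasma cell differentiation, was at 12.7 in FO and 30.9 in MZ cells, 2.43-fold higher in MZ cells, and Xbp1, the factor of the secretory programme, was at 397 and 659, 1.66-fold higher there. Of the other probe sets of Xbp1, 2 were also higher in MZ cells and the dimmest, at 36.4 and 18.4, was 1.98-fold higher in FO cells. Sdc1 was at 68.3 and 4.35, or at least 5.39-fold higher in FO cells by its brightest probe set, but at least 2.30-fold and 1.24-fold by the others that were measured, and Irf4 was at 532 and 527. Of 9 dendritic cell markers 4 were measured, with Tcf4, which B cells also express, at 422 and 609 and Flt3 at 19.7 and 19.9. T and NK cell, neutrophil, and erythroid and platelet markers lay near or below the floor. Cd3e (17.2 and 1.29), Cd4 (13.9 and 1.98), S100a9 (14.8 and 0.79) and Hba-a1 (15.0 and 5.15) passed it on the FO array alone. Ngp (11.8 and 17.9) and Elane (8.89 and 14.4) passed it on the MZ array alone, so the side of all of these was fixed. Gzma, at 16.3 and 20.7, was above the floor on both arrays and higher in MZ cells.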
